A study of Rattus norvegicus with 21 samples.

Results

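The amino acid and tRNA charging genes are a list of 39 rat genes in 3 roles: 19 cytosolic aminoacyl-tRNA synthetases, 12 enzymes of amino acid synthesis and 8 amino acid transporters. They were chosen by name, with earlier results of these data known, so counts of this list are not an independent test. Each gene was read from its brightest probe set over all 21 arrays, among probe sets annotated with a single symbol. This gave a value for 35 of the 39 genes, among 13438 genes measured in the same way. Gars1, Qars1, Mthfd2 and Pycr1 were not measured by this rule.

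The cells were INS-1, an insulin-secreting line from a rat insulinoma, often used to stand in for beta cells. The CTSH line was pCTSH#1, a single clone stably transfected with a plasmid encoding cathepsin H (CTSH), a lysosomal protease. Its control was pcDNA, INS-1 cells stably transfected with the empty vector. Both lines were sampled after 0, 6 and 16 h of 150 pg/ml recombinant mouse IL-1β with 5 ng/ml recombinant rat IFNγ, and untransfected INS-1 cells (INS1) were sampled untreated, with 3 arrays in each of the 7 groups. Whether the numbered replicates were grown separately is not stated, and the p-values therefore reflect only how far these arrays differ, which may be technical. With a single CTSH clone, an effect of CTSH cannot be told apart from a property of that clone. The series holds no untreated arrays at 6 or 16 h. An effect of the cytokines therefore cannot be told apart from one of time in culture.

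Aminoacyl-tRNA synthetases join each amino acid to its own tRNA, and so supply the ribosome. When amino acids run short or unfolded protein builds up in the endoplasmic reticulum, kinases phosphorylate the initiation factor eIF2α, overall translation falls, and the transcription factor ATF4 is made. ATF4 binds a C/EBP-ATF response element in genes for synthetases, for serine and asparagine synthesis and for amino acid transporters. IL-1β and IFNγ are cytokines of the islet inflammation that precedes type 1 diabetes. In human cells the tryptophanyl-tRNA synthetase gene is a classical IFNγ target.

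The values are log2 intensities of Affymetrix probe sets, so a difference of 1.00 is a doubling of the signal. Array medians lay between 4.88 and 5.08 and background, read on each array from its nonspecific control probe sets, between 3.88 and 4.18. Replicates correlated with the others of their group at 0.9926 to 0.9965. All 7 measured beta cell markers stood above background on every array and all 4 exocrine markers on none. Gcg, the glucagon gene, and Cd68, a macrophage gene, were above background on every array too, while the leukocyte genes Cd3e and Itgam were on none. The rat Ctsh probe set read 4.13, 3.85 and 4.02 in pCTSH#1 and 3.87, 3.99 and 3.84 in pcDNA at 0 h, 4.12, 3.87 and 4.21 in pCTSH#1 and 3.48, 3.76 and 3.78 in pcDNA at 6 h, and 5.08, 4.15 and 4.11 in pCTSH#1 and 4.18, 3.50 and 3.71 in pcDNA at 16 h. In pCTSH#1 1 of 3 arrays was at background at each time, against 3, 3 and 2 of 3 in pcDNA. The lines did not overlap at 6 h, and the differences of 0.10, 0.40 and 0.66 at 0, 6 and 16 h did not pass (adjusted p = 0.945, 0.458 and 0.08). The labels do not give the species of the CTSH insert, and whether this probe set reads it was not tested.

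After 16 h of cytokines, most of the list was higher in both lines. In pCTSH#1, 25 of the 35 genes rose and 2 fell against 0 h, with a median log2 difference of 1.14 (limma, adjusted p below 0.05). Over all 13438 genes 25.2% rose and 30.1% fell, with a median of -0.01. In pcDNA, 26 of the 35 rose and none fell, with a median of 1.16, against 25.8% higher, 29.5% lower and a median of 0.00 over all genes. The 25 genes that rose in pCTSH#1 were all among the 26 of pcDNA. The mean level of the 35 genes was 9.32 ± 0.03 in pCTSH#1 at 16 h and 8.25 ± 0.05 at 0 h (SD, n = 3 each), and 9.37 ± 0.05 in pcDNA at 16 h and 8.27 ± 0.04 at 0 h, with no overlap between the times in either line. Beside this, the mean level of the 7 beta cell markers was 11.11 to 11.28 at 16 h and 12.15 on all arrays at 0 h in pCTSH#1, and 11.02 to 11.06 at 16 h and 11.98 to 12.07 at 0 h in pcDNA. Of these 7, 5 fell in pCTSH#1 and all 7 in pcDNA, with medians of -0.18 in pCTSH#1 and -0.62 in pcDNA, and the transcription factor genes Nkx6-1 (-3.78 in pCTSH#1 and -3.01 in pcDNA) and Pdx1 (-1.73 in pCTSH#1 and -1.99 in pcDNA) fell furthest. The mean of the 2 measured alpha cell markers was 5.14 to 5.51 at 16 h and 6.27 to 6.48 at 0 h in pCTSH#1, and 4.91 to 5.22 at 16 h and 6.03 to 6.37 at 0 h in pcDNA. Of these Gcg fell by 2.07 in pCTSH#1 and 2.34 in pcDNA, and Irx2 did not pass. The mean of the 4 leukocyte markers was 4.13 to 4.23 at 16 h and 3.90 to 3.96 at 0 h in pCTSH#1, and 4.11 to 4.12 at 16 h and 3.83 to 3.99 at 0 h in pcDNA, with Cd3e and Itgam below background throughout. Only Cd68 of the 4 passed, with 1.24 in pCTSH#1 and 0.83 in pcDNA, and the median of the 4 was -0.07 in pCTSH#1 and 0.06 in pcDNA. None of the delta cell, PP cell, fibroblast, endothelial or exocrine markers passed at 16 h in either line (limma; 0 at an unadjusted p below 0.05). The part of these markers in the result was not tested. Since the arrays were scaled to a common distribution and came from whole cultures, fewer cells of a kind and less RNA per cell cannot be told apart.

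**Figure D1:**
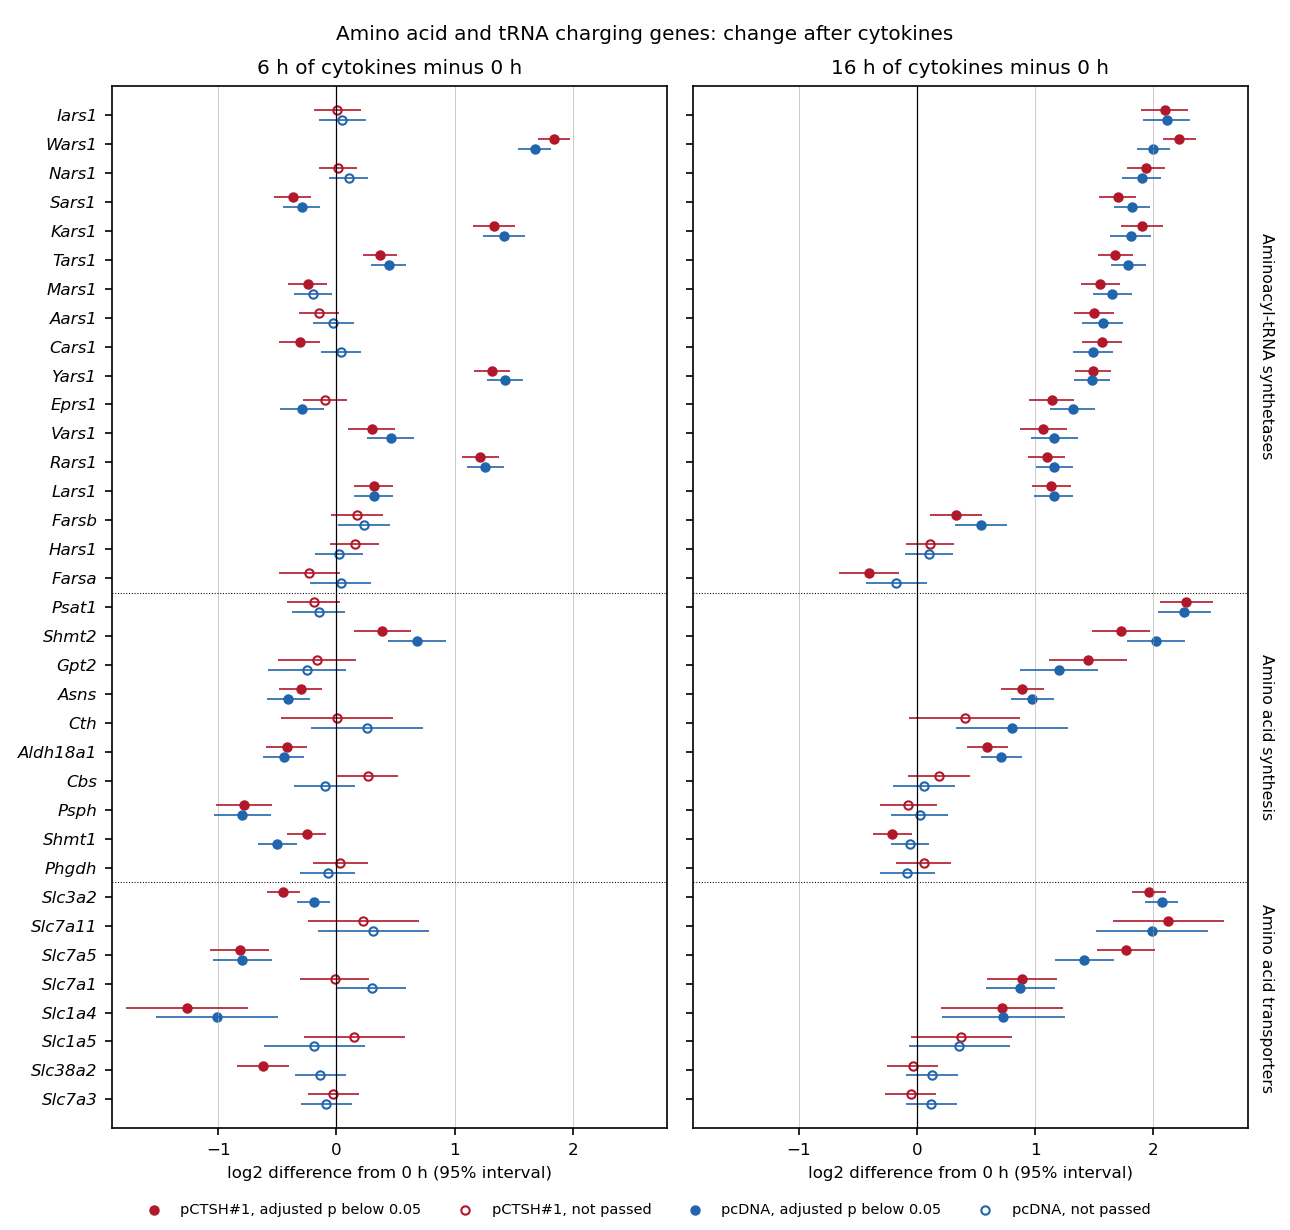
Log2 difference from 0 h of the 35 genes at 6 h (left) and 16 h (right), with 95% intervals, in pCTSH#1 (red) and pcDNA (blue), grouped by role; filled points passed the test. At 6 h 4 synthetases stand near or above 1.2 in both lines and several transporters lie below 0, and at 16 h most genes lie between 0.5 and 2.3.

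The synthetases made up most of the rise at 16 h. In pCTSH#1, 15 of the 17 measured rose and 1 fell, with a median of 1.50, and in pcDNA 15 rose and none fell, with a median of 1.49. Of the synthesis enzymes 5 of 10 rose and 1 fell in pCTSH#1 (median 0.50), and 6 rose and none fell in pcDNA (median 0.76). Of the 8 transporters 5 rose and none fell in either line, with a median of 0.80 in each. The spread between replicates of the 35 genes had a median SD of 0.0975 in pCTSH#1 and 0.0868 in pcDNA at 16 h, against 0.0846 and 0.0816 at 0 h. This median does not show a shared shift of the transporters. Their mean level at 16 h was 8.07, 8.07 and 8.24 in pCTSH#1 and 7.94, 7.97 and 8.36 in pcDNA, with the third array highest in each line.

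At 6 h the list was split. In pCTSH#1, 8 of the 35 genes rose and 11 fell, beside 13.0% higher and 21.3% lower over all genes, and the median was -0.02. In pcDNA, 8 rose and 9 fell, beside 14.5% and 24.6%, with a median of -0.03. By role, of the 17 synthetases 7 rose and 3 fell in pCTSH#1 and 7 rose and 2 fell in pcDNA, while of the 8 transporters none rose in either line and 4 fell in pCTSH#1 and 3 in pcDNA. The synthesis enzymes had 1 gene higher and 4 lower in each line. The same 8 genes rose in both lines and 8 fell in both, and none moved in opposite directions. With cyclic loess in place of the deposited scaling, the median of the list at 6 h was 0.05 in both lines, and the share of called probe sets that were higher was 51.9% in place of 40.1% in pCTSH#1 and 51.6% in place of 39.6% in pcDNA.

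Wars1, the tryptophanyl-tRNA synthetase, gave the largest early rise. Its levels in pCTSH#1 were 9.80, 9.79 and 9.74 at 0 h, 11.61, 11.60 and 11.64 at 6 h and 12.04, 11.93 and 12.03 at 16 h. In pcDNA they were 10.05, 9.97 and 10.07 at 0 h, 11.71, 11.68 and 11.73 at 6 h and 12.04, 11.98 and 12.07 at 16 h, and in INS1 9.83, 9.94 and 9.90. All arrays at 6 h lay far above all at 0 h in both lines, and those at 16 h lay a little higher again. The difference at 6 h was 1.84 ± 0.065 in pCTSH#1 (SE; adjusted p = 1.58e-14) and 1.68 ± 0.065 in pcDNA (adjusted p = 5.91e-14). From 6 to 16 h it rose by a further 0.38 in pCTSH#1 and 0.32 in pcDNA, so that the signal at 16 h was 4.66 times that at 0 h in pCTSH#1 and 4.002 times in pcDNA.

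Kars1, the lysyl-tRNA synthetase, had levels of 9.81, 9.88 and 9.73 at 0 h, 11.13, 11.09 and 11.22 at 6 h and 11.79, 11.78 and 11.58 at 16 h in pCTSH#1. In pcDNA they were 9.71, 9.80 and 9.92 at 0 h, 11.25, 11.21 and 11.23 at 6 h and 11.67, 11.66 and 11.53 at 16 h, and in INS1 9.67, 9.86 and 9.85. Its order over time was like that of Wars1, with no overlap between any of the 3 times in either line. It rose by 1.34 ± 0.084 at 6 h in pCTSH#1 and by 1.42 ± 0.084 in pcDNA, and by 16 h the differences from 0 h were 1.91 in pCTSH#1 and 1.81 in pcDNA (adjusted p = 2.49e-13 in pCTSH#1 and 5.21e-13 in pcDNA).

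Yars1 and Rars1, the tyrosyl- and arginyl-tRNA synthetases, were already near their 16 h level at 6 h. Yars1 read 9.95, 9.94 and 9.99 at 0 h, 11.20, 11.23 and 11.40 at 6 h and 11.55, 11.37 and 11.43 at 16 h in pCTSH#1 and 9.87, 9.88 and 9.88 at 0 h, 11.25, 11.32 and 11.36 at 6 h and 11.35, 11.29 and 11.43 at 16 h in pcDNA. Rars1 read 10.20, 10.20 and 10.18 at 0 h, 11.43, 11.37 and 11.42 at 6 h and 11.18, 11.24 and 11.44 at 16 h in pCTSH#1 and 10.11, 10.11 and 10.08 at 0 h, 11.37, 11.32 and 11.38 at 6 h and 11.29, 11.14 and 11.34 at 16 h in pcDNA. For both genes every array at 6 h and at 16 h lay above every array at 0 h of its line, and the difference at 6 h was between 1.22 and 1.43. From 6 to 16 h the differences were 0.17 in pCTSH#1 and 0.05 in pcDNA for Yars1 (adjusted p = 0.0679 in pCTSH#1 and 0.664 in pcDNA) and -0.12 in pCTSH#1 and -0.10 in pcDNA for Rars1 (0.236 in pCTSH#1 and 0.334 in pcDNA). The Yars1 value of pCTSH#1 passed as a rise with median centring (adjusted p = 0.0118), cyclic loess (0.0183), trend and robust moderation (0.0158) and the mean of probe sets (0.0365), among the brighter probe sets (0.0227), and without the third array of 6 h (0.0239) or the second of 16 h (0.0489). Rars1 passed as a fall in pCTSH#1 without the third array of 16 h (-0.20, adjusted p = 0.0453).

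Iars1 and Nars1, for isoleucine and asparagine, were near the level of untreated cells at 6 h and far above it at 16 h. Iars1 read 8.92, 9.02 and 8.88 at 0 h, 8.92, 9.003 and 8.93 at 6 h and 10.88, 11.02 and 11.21 at 16 h in pCTSH#1. In pcDNA it read 9.01, 9.09 and 8.91 at 0 h, 8.996, 9.09 and 9.07 at 6 h and 11.14, 10.998 and 11.21 at 16 h, and in INS1 9.04, 9.13 and 8.81. The arrays of 0 and 6 h overlapped in both lines, and those of 16 h stood apart. The difference at 6 h was 0.01 in pCTSH#1 and 0.05 in pcDNA, and at 16 h 2.09 ± 0.096 in pCTSH#1 and 2.11 ± 0.096 in pcDNA (adjusted p = 4.25e-13 in pCTSH#1 and 3.52e-13 in pcDNA).

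Nars1 read 9.84, 9.84 and 9.70 at 0 h, 9.81, 9.84 and 9.78 at 6 h and 11.66, 11.79 and 11.74 at 16 h in pCTSH#1. In pcDNA it read 10.01, 9.99 and 9.999 at 0 h, 10.10, 10.16 and 10.05 at 6 h and 11.9997, 11.90 and 11.80 at 16 h, and in INS1 9.88, 10.02 and 9.77. As with Iars1, only the arrays of 16 h stood far from the others. It rose by 1.94 ± 0.078 at 16 h in pCTSH#1 and by 1.90 ± 0.078 in pcDNA. At 6 h the 3 pcDNA arrays lay above the 3 of 0 h, but the difference of 0.10 did not pass (adjusted p = 0.376).

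Sars1 and Mars1, the seryl- and methionyl-tRNA synthetases, were below the untreated level at 6 h. Sars1 read 9.95, 9.78 and 9.94 at 0 h, 9.52, 9.45 and 9.58 at 6 h and 11.60, 11.61 and 11.55 at 16 h in pCTSH#1 and 9.97, 10.01 and 9.89 at 0 h, 9.63, 9.66 and 9.70 at 6 h and 11.76, 11.77 and 11.79 at 16 h in pcDNA, with 9.85, 10.07 and 9.97 in INS1. Mars1 read 9.65, 9.65 and 9.54 at 0 h, 9.31, 9.45 and 9.34 at 6 h and 11.20, 11.13 and 11.15 at 16 h in pCTSH#1 and 9.55, 9.59 and 9.64 at 0 h, 9.44, 9.44 and 9.31 at 6 h and 11.30, 11.11 and 11.34 at 16 h in pcDNA, with 9.60, 9.75 and 9.62 in INS1. In both genes each line had its lowest arrays at 6 h and its highest at 16 h, with no overlap between times. Sars1 at 6 h differed by -0.37 in pCTSH#1 and -0.29 in pcDNA, both past the test, although in pcDNA the mean of its probe sets gave 0.01 (adjusted p = 0.963). Mars1 differed by -0.24 in pCTSH#1, which passed, and by -0.20 in pcDNA, which did not (adjusted p = 0.0645) except with trend and robust moderation (0.0239), among the brighter probe sets (0.0237) and with the mean of probe sets (0.016). The pCTSH#1 call ended with cyclic loess (adjusted p = 0.114) and without the first or second array of 0 h or the first or the third of 6 h (0.0774 to 0.0985). At 16 h Sars1 had risen by 1.70 ± 0.074 in pCTSH#1 and 1.82 ± 0.074 in pcDNA and Mars1 by 1.55 ± 0.078 in pCTSH#1 and 1.65 ± 0.078 in pcDNA.

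The other synthetases fell into smaller groups. Tars1, Lars1 and Vars1, for threonine, leucine and valine, rose at 6 h by 0.30 to 0.46 and at 16 h by 1.07 to 1.79 over both lines. The 6 h rise of Lars1 did not pass when its probe sets were averaged (adjusted p = 0.339 in pCTSH#1 and 0.149 in pcDNA), nor did that of Vars1 in pCTSH#1 (0.101), which also ended without the second array of either time or the third of 0 h (0.0615 to 0.14). Aars1 (alanine), Cars1 (cysteine) and Eprs1 (glutamate and proline) rose at 16 h by 1.14 to 1.57. At 6 h Cars1 fell in pCTSH#1, with a difference of -0.31, and its difference in pcDNA was 0.04. Eprs1 had a difference of -0.10 in pCTSH#1 and fell in pcDNA, with -0.29. With cyclic loess neither fall passed (adjusted p = 0.0599 for Cars1 and 0.0542 for Eprs1), and that of Eprs1 also ended without the first array of 0 h (0.0834) or the second of 6 h (0.0651). Other Cars1 probe sets gave larger rises at 16 h, of 3.52 and 3.38 in pCTSH#1 and 3.58 and 3.38 in pcDNA.

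The subunits of the phenylalanyl-tRNA synthetase and Hars1, for histidine, changed less at 16 h or did not pass. Farsb read 9.0004, 9.02 and 9.26 at 16 h and 8.80, 8.90 and 8.59 at 0 h in pCTSH#1, a rise of 0.33 that did not pass without the third array of 0 h (adjusted p = 0.0848) or of 16 h (0.0815), and rose by 0.54 in pcDNA. Farsa, the other subunit, fell by 0.41 in pCTSH#1, where the second array of 0 h stood high. Without that array the difference was -0.25 (adjusted p = 0.0913), and in pcDNA it was -0.17 (adjusted p = 0.278). With cyclic loess no gene of the list passed as lower at 16 h in pCTSH#1, so the Farsa call ended there too. Hars1 read between 8.82 and 9.31 on all 21 arrays and passed none of the 14 comparisons.

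Because many of these genes rose together, the 250 bases before each gene's start were searched on both strands for the letters of known elements. The sequences are RefSeq's promoter table of the GRCr8 build, which matched 31 of the 35 genes. TGATGNAAN, the core of the C/EBP-ATF response element, was in the window of 7 of the 31 genes (22.6%; Aars1, Iars1, Mars1, Nars1, Slc1a4, Slc7a1 and Tars1) and in 3.4% of the 33469 promoters of the table. TTCNNNGAA, the letters of the gamma-activated sequence (GAS), was in 3 (9.7%; Aars1, Lars1 and Shmt2) against 7.7% of all promoters. GAAANNGAA, the letters of interferon-stimulated response elements, was in none of the 31 and in 8.1% of all promoters. Wars1, Kars1 and Yars1 had none of the 3 in this window, and Rars1 was among the 4 genes not matched. The matches are letters in a window and not shown sites. Among the genes with a match, the sequences printed are those of the 4 with the largest log2 difference at 16 h in pcDNA and the 2 with the smallest. Capitals mark the match and the last letter is the base before the start. In Iars1, Tars1 and Slc1a4 the capitals are the reverse complement of TGATGNAAN, and in Nars1 and Slc7a1 they read it as printed. In Shmt2 they are the letters of TTCNNNGAA. The coordinates are those of the printed bases, and the strand given is that of the gene. Iars1 lies at chr17:15193653-15193902, minus strand, with its match first base 25 before the start. Shmt2 lies at chr7:65249568-65249817, minus strand, with matches 173 and 61 before it, and Nars1 at chr18:60275783-60276032, minus strand, with its match 14 before it. Tars1 lies at chr2:62114803-62115052, minus strand, with its match 28 before it. Slc1a4 lies at chr14:98761563-98761812, minus strand, with its match 236 before it, and Slc7a1 at chr12:11664238-11664487, plus strand, with its match 30 before it.
Iars1: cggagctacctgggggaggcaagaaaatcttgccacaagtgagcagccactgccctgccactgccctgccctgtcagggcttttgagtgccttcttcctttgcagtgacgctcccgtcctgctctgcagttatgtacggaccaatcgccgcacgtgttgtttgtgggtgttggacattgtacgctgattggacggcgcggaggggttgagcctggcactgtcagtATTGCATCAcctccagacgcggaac
Shmt2: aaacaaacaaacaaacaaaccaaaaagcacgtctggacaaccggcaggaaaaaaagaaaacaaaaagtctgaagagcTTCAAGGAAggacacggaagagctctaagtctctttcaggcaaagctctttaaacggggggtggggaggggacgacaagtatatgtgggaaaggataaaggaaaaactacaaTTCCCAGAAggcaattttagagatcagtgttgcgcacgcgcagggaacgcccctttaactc
Nars1: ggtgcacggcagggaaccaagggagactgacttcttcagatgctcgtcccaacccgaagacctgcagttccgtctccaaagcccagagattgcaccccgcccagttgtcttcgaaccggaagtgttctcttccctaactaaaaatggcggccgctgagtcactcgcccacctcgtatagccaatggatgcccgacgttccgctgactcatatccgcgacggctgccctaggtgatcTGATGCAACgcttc
Tars1: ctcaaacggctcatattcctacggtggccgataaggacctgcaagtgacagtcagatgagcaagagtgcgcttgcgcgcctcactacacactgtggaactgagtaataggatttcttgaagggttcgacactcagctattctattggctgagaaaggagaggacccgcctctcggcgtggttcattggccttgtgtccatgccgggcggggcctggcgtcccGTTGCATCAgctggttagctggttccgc
Slc1a4: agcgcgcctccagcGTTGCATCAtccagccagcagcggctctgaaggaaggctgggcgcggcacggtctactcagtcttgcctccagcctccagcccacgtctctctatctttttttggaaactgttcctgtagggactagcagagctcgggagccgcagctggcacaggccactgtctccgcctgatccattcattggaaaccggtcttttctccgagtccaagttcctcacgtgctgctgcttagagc
Slc7a1: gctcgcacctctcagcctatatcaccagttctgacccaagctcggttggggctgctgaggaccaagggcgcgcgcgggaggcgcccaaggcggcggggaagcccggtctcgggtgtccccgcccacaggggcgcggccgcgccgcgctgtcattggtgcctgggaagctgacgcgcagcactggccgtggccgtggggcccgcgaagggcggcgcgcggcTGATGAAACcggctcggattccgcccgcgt

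All 7 genes with the TGATGNAAN letters rose at 16 h in both lines, by 0.72 to 2.11. Of the 24 matched genes without them, 16 rose in pCTSH#1 and 17 in pcDNA, beside 25.2% and 25.8% of all genes. Psat1, Slc3a2, Slc7a11, Slc7a5 and Asns were among those without the letters in this window that rose in both lines. The search covered only the 250 bases before the listed starts. An element elsewhere, or before another start, would have been missed, so these genes are not shown to lack it. Most of the list rose, and the difference between genes with and without the letters was not tested. At 6 h the 7 genes with the letters went different ways: Tars1 rose in both lines, Slc1a4 fell in both, Mars1 fell in pCTSH#1, and Aars1, Iars1, Nars1 and Slc7a1 did not pass in either. In 4 of the 6 printed sequences, those of Iars1, Nars1, Tars1 and Slc7a1, the match begins within 30 bases of the start.

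Psat1, the aminotransferase of the serine pathway, had the widest range of group means in the list. It read 8.78, 8.70 and 8.29 at 0 h, 8.36, 8.45 and 8.39 at 6 h and 10.84, 10.88 and 10.89 at 16 h in pCTSH#1. In pcDNA it read 8.79, 8.89 and 8.75 at 0 h, 8.62, 8.59 and 8.77 at 6 h and 11.14, 11.004 and 11.07 at 16 h, and in INS1 8.61, 8.79 and 8.94. The arrays of 16 h stood above all others, and those of 6 h overlapped those of 0 h. Without the third array of 0 h, the 6 h difference in pCTSH#1 was -0.34 (adjusted p = 0.0125), against -0.19 with it (0.231). At 16 h it rose by 2.28 ± 0.11 in pCTSH#1 (adjusted p = 7.19e-13) and by 2.26 ± 0.11 in pcDNA (adjusted p = 7.72e-13), a signal 4.85 times that of 0 h in pCTSH#1 and 4.79 times in pcDNA.

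The steps before and after Psat1 in the serine pathway gave other values. Phgdh, the enzyme of the first step, read 3.73 to 4.23 over all 21 arrays, at or near background in all 7 groups, so no change could be read. Psph, the phosphatase of the last step, read 9.32, 9.68 and 9.69 at 0 h, 8.77, 8.69 and 8.89 at 6 h and 9.49, 9.49 and 9.49 at 16 h in pCTSH#1 and 9.46, 9.66 and 9.60 at 0 h, 8.77, 8.59 and 8.98 at 6 h and 9.53, 9.67 and 9.59 at 16 h in pcDNA. The pCTSH#1 values at 16 h were all 9.4901, identical to the last digit shown, so they give no reading of the spread between those arrays. All 6 arrays of 6 h lay below the others of their line, and those of 16 h overlapped those of 0 h. It fell by 0.78 ± 0.11 in pCTSH#1 and 0.80 ± 0.11 in pcDNA at 6 h (adjusted p = 2.28e-05 in pCTSH#1 and 1.5e-05 in pcDNA), and at 16 h the differences were -0.07 in pCTSH#1 and 0.02 in pcDNA (adjusted p = 0.656 in pCTSH#1 and 0.91 in pcDNA).

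The serine hydroxymethyltransferases, which convert serine to glycine and load the folate cycle in the cytosol and in mitochondria, had different values. Shmt2, the mitochondrial form, read 7.94, 8.03 and 7.88 at 0 h, 8.33, 8.31 and 8.36 at 6 h and 9.73, 9.66 and 9.64 at 16 h in pCTSH#1 and 7.80, 7.95 and 8.07 at 0 h, 8.47, 8.63 and 8.76 at 6 h and 9.92, 10.01 and 9.96 at 16 h in pcDNA, with 7.78, 8.18 and 8.38 in INS1. Each time stood above the one before it in both lines. It rose by 0.39 in pCTSH#1 and 0.68 in pcDNA at 6 h and by 1.73 ± 0.12 in pCTSH#1 and 2.02 ± 0.12 in pcDNA at 16 h. The 6 h call in pCTSH#1 ended without the third array of 0 h (adjusted p = 0.061) or of 6 h (0.0507). Shmt1, the cytosolic form, fell at 6 h by 0.25 in pCTSH#1 and 0.50 in pcDNA, and its differences at 16 h were -0.21 in pCTSH#1 and -0.06 in pcDNA. Its pCTSH#1 calls ended with cyclic loess (adjusted p = 0.111 at 6 h and 0.296 at 16 h). The 6 h call also ended without the first array of 0 h or the first or the third of 6 h (0.0514 to 0.103). The 16 h call ended without the first or second array of either time (0.0545 to 0.161). The other Shmt1 probe set gave -0.98 in pCTSH#1 and -0.87 in pcDNA at 16 h, and passed in both (adjusted p = 8.33e-09 and 5.03e-08). With the mean of probe sets Shmt1 also fell at 16 h in pcDNA (-0.46, adjusted p = 1.23e-05).

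Asns, the asparagine synthetase, read 11.25, 11.20 and 11.08 at 0 h, 10.88, 10.87 and 10.87 at 6 h and 11.89, 12.13 and 12.18 at 16 h in pCTSH#1 and 11.20, 11.27 and 11.07 at 0 h, 10.70, 10.77 and 10.85 at 6 h and 12.18, 12.14 and 12.14 at 16 h in pcDNA. The times did not overlap in either line, with 6 h lowest and 16 h highest. It fell by 0.30 in pCTSH#1 and 0.41 in pcDNA at 6 h and had risen by 0.89 ± 0.087 in pCTSH#1 and 0.98 ± 0.087 in pcDNA at 16 h. The 6 h fall in pCTSH#1 did not pass without the first array of 0 h (adjusted p = 0.0582). Aldh18a1, the enzyme of the committed step to proline, likewise fell by 0.42 in pCTSH#1 and 0.45 in pcDNA at 6 h and was above 0 h at 16 h by 0.60 in pCTSH#1 and 0.71 in pcDNA.

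The remaining enzymes were dim. Gpt2, the mitochondrial alanine aminotransferase, read 6.06, 5.40 and 5.69 at 16 h and 4.21, 4.04 and 4.56 at 0 h in pCTSH#1, and 5.84, 5.84 and 5.52 at 16 h and 4.48, 4.57 and 4.56 at 0 h in pcDNA. It rose by 1.45 in pCTSH#1 and 1.20 in pcDNA from a level near background. Cth, the cystathionine gamma-lyase that forms cysteine, read 5.25, 5.71 and 4.37 at 16 h and 4.35, 4.37 and 4.20 at 0 h in pcDNA, where the third array of 16 h lay within those of 0 h, and its rise of 0.80 did not pass without the second array of 16 h (adjusted p = 0.0575). In pCTSH#1 the difference was 0.40 (adjusted p = 0.166). Cbs, the enzyme before it, was at or near background in all 7 groups.

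Slc3a2 and Slc7a5 encode the heavy chain and the light chain of the LAT1 carrier of large neutral amino acids. Slc3a2 read 9.89, 9.90 and 9.81 at 0 h, 9.40, 9.49 and 9.36 at 6 h and 11.88, 11.83 and 11.77 at 16 h in pCTSH#1 and 9.94, 9.97 and 9.92 at 0 h, 9.71, 9.77 and 9.77 at 6 h and 12.03, 12.04 and 11.97 at 16 h in pcDNA, with 9.85, 9.99 and 9.90 in INS1. Slc7a5 read 8.57, 8.33 and 8.23 at 0 h, 7.35, 7.62 and 7.70 at 6 h and 10.27, 10.06 and 10.11 at 16 h in pCTSH#1 and 8.48, 8.80 and 8.56 at 0 h, 7.74, 7.68 and 8.04 at 6 h and 10.03, 9.96 and 10.10 at 16 h in pcDNA, with 8.46, 8.54 and 8.64 in INS1. Both genes had their lowest arrays at 6 h and their highest at 16 h in each line, with no overlap between times. Slc3a2 fell at 6 h by 0.45 ± 0.068 in pCTSH#1 and by 0.19 ± 0.068 in pcDNA, and the pcDNA call ended without any 1 of the 6 arrays compared (adjusted p = 0.0567 to 0.117) and with cyclic loess (0.19). Slc7a5 fell by 0.82 ± 0.12 in pCTSH#1 and 0.80 ± 0.12 in pcDNA. At 16 h Slc3a2 had risen by 1.96 ± 0.068 in pCTSH#1 and 2.07 ± 0.068 in pcDNA (adjusted p = 6.39e-15 in pCTSH#1 and 3.02e-15 in pcDNA) and Slc7a5 by 1.77 ± 0.12 in pCTSH#1 and 1.42 ± 0.12 in pcDNA (1.28e-10 in pCTSH#1 and 3.35e-09 in pcDNA).

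Slc7a11, the light chain of the cystine and glutamate exchanger, pairs with the same heavy chain. It read 4.45, 4.51 and 4.41 at 0 h, 4.66, 4.72 and 4.67 at 6 h and 6.43, 6.50 and 6.83 at 16 h in pCTSH#1. In pcDNA it read 4.10, 4.65 and 4.51 at 0 h, 4.90, 4.47 and 4.83 at 6 h and 5.87, 6.22 and 7.14 at 16 h, and in INS1 3.95, 4.40 and 3.99. The arrays of 16 h lay above all others, which were dim, and in pcDNA the third of them was well above the other 2. It rose by 2.13 ± 0.23 in pCTSH#1 and 1.99 ± 0.23 in pcDNA at 16 h (adjusted p = 1.04e-07 in pCTSH#1 and 2.65e-07 in pcDNA) from a level near background.

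Slc1a4, a carrier of small neutral amino acids such as serine and alanine, had the deepest fall at 6 h. It read 6.83, 6.996 and 6.40 at 0 h, 5.14, 5.77 and 5.52 at 6 h and 7.38, 7.29 and 7.73 at 16 h in pCTSH#1. In pcDNA it read 7.06, 6.85 and 6.22 at 0 h, 5.82, 5.80 and 5.49 at 6 h and 7.31, 7.23 and 7.80 at 16 h, and in INS1 6.71, 6.87 and 5.94. The 6 h arrays lay below all others of their line, and the third array of 0 h was the lowest of its group in all 3 lines. It fell by 1.27 ± 0.25 in pCTSH#1 and 1.01 ± 0.25 in pcDNA at 6 h (adjusted p = 0.000501 in pCTSH#1 and 0.00329 in pcDNA) and was above 0 h at 16 h by 0.72 in pCTSH#1 and 0.73 in pcDNA. The 16 h calls ended without the third array of 0 h (adjusted p = 0.113 in pCTSH#1 and 0.139 in pcDNA) or of 16 h (0.0938 and 0.107).

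By their brightest probe sets, the remaining transporters moved less. Slc7a1, a carrier of arginine and lysine, rose by 0.89 ± 0.14 in pCTSH#1 and 0.87 ± 0.14 in pcDNA at 16 h. Another Slc7a1 probe set was at background on 11 arrays and had a mean of 5.01 over all arrays. It gave larger log2 differences at 16 h, of 4.44 in pCTSH#1 and 4.32 in pcDNA (adjusted p = 1.72e-13 in pCTSH#1 and 2.49e-13 in pcDNA). Slc38a2, a carrier of small neutral amino acids such as alanine and glutamine, fell at 6 h in pCTSH#1 by 0.62 ± 0.10, with a difference of -0.14 in pcDNA (adjusted p = 0.385). Its differences at 16 h were -0.04 in pCTSH#1 and 0.13 in pcDNA. Slc1a5, a glutamine carrier, read between 4.10 and 5.43 on all arrays and did not pass at 6 or 16 h against 0 h. Slc7a3, a carrier of cationic amino acids, was at or near background in all 7 groups.

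**Figure D2:**
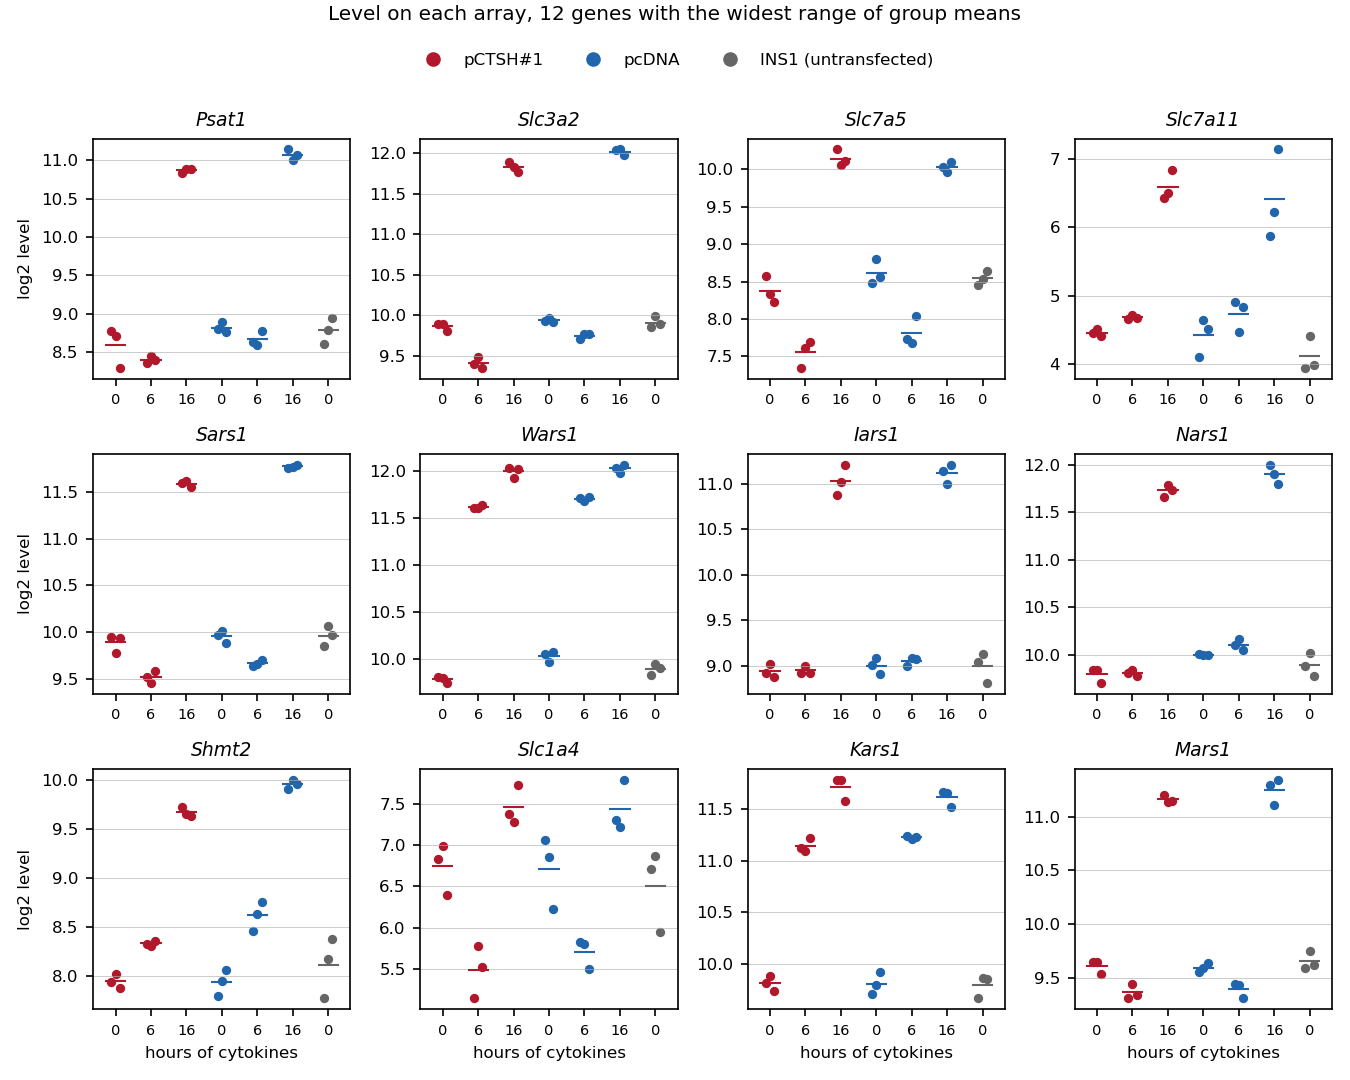
Log2 level on each array (points) and group mean (lines) by hours of cytokines for the 12 genes with the widest range of group means, in pCTSH#1 (red), pcDNA (blue) and untransfected INS1 (grey). Wars1 and Kars1 show most of their 16 h rise at 6 h, Iars1, Nars1 and Psat1 move at 16 h, and Slc7a5 and Slc1a4 are lowest at 6 h.

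Between 6 and 16 h nearly all of the movement was upward. In pCTSH#1, 24 of the 35 genes rose and none fell, with a median of 0.90, beside 24.0% higher and 25.2% lower over all genes. In pcDNA, 27 rose and none fell, with a median of 0.84, beside 24.8% and 25.1%. The largest steps were those of Slc7a5 in pCTSH#1 (2.59) and Psat1 in pcDNA (2.41). Genes that had fallen or not moved at 6 h gave the largest values, with Slc3a2 at 2.41 in pCTSH#1 and 2.26 in pcDNA, Sars1 at 2.07 in pCTSH#1 and 2.11 in pcDNA and Iars1 at 2.09 in pCTSH#1 and 2.06 in pcDNA. These comparisons share the 6 h arrays with those of 6 h against 0 h. Psph rose by 0.71 in pCTSH#1 and 0.82 in pcDNA in this interval and Slc38a2 by 0.58 in pCTSH#1 and 0.26 in pcDNA. The pcDNA call of Slc38a2 ended without any array of 6 h or the third of 16 h (adjusted p = 0.0668 to 0.321). With median centring the median over all probe sets shifted to 0.10 in pCTSH#1 and the share of called probe sets that were higher was 57.9% in place of 47.0%, with 25 of the 35 genes higher.

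**Figure D3:**
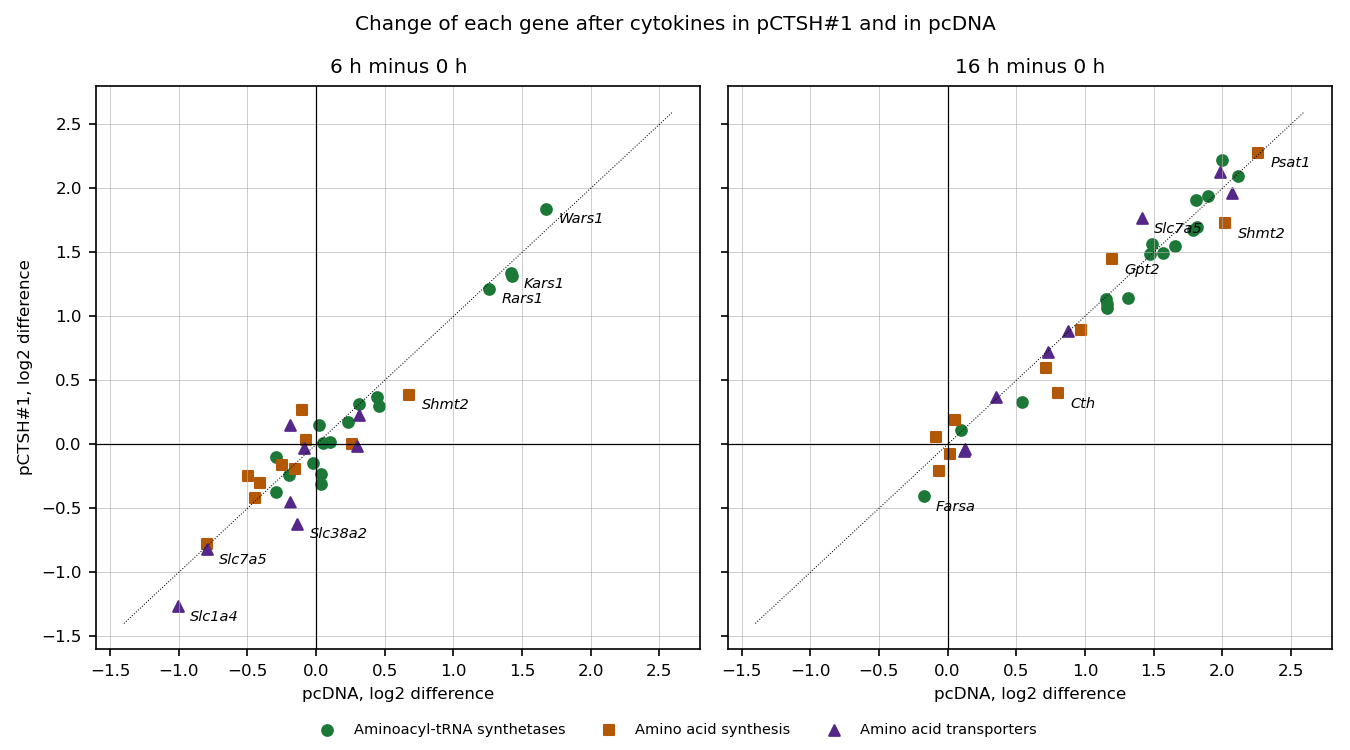
Log2 difference from 0 h in pCTSH#1 (vertical axis) against pcDNA (horizontal axis) at 6 h (left) and 16 h (right), with 1 point per gene and equal change on the dotted line. The points lie near the line at both times, and no gene that passed in both lines changed sign between them.

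The 2 transfected lines were compared at each time. At 0 h none of the 35 genes passed between pCTSH#1 and pcDNA (limma; 4 at an unadjusted p below 0.05), beside 2.56% of all genes. The largest difference was 0.48 for Slc7a1 (adjusted p = 0.103), followed by 0.27 for Eprs1 (0.201), -0.27 for the dim gene Gpt2 (0.653) and -0.25 for Wars1 (0.0553). Wars1 read 9.80, 9.79 and 9.74 in pCTSH#1 and 10.05, 9.97 and 10.07 in pcDNA, with no overlap, and this difference passed with trend and robust moderation (adjusted p = 0.00196), among the brighter probe sets (0.00978) and with the mean of probe sets (0.0454). Slc7a1 (0.0462) and Eprs1 (0.0272) also passed at 0 h with trend and robust moderation. At 16 h none passed (6 at an unadjusted p below 0.05), beside 5.28% of all genes, and the largest was again Slc7a1, with 10.55, 10.63 and 10.77 in pCTSH#1 and 10.002, 9.92 and 10.54 in pcDNA, a difference of 0.50 (95% interval from 0.20 to 0.79; adjusted p = 0.0531). It passed with median centring (adjusted p = 0.0443), among the brighter probe sets (0.0298), with trend and robust moderation (0.023) and with the mean of probe sets (0.0182). It was 0.69 without the third pcDNA array of 16 h (adjusted p = 0.00295), and without the same array Cth differed by -0.80 (0.011). The 95% interval of a difference between these lines reached 0.20 to either side for the median gene and 0.52 for the widest, which bounds what 3 arrays a group can show.

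At 6 h, 5 of the 35 genes differed between pCTSH#1 and pcDNA, 2 higher and 3 lower in pCTSH#1, beside 2.43% and 1.56% of all genes. Eprs1 read 11.11, 10.98 and 10.99 in pCTSH#1 and 10.55, 10.50 and 10.63 in pcDNA, a difference of 0.47 ± 0.090 (adjusted p = 0.00479). Slc3a2 read 9.40, 9.49 and 9.36 in pCTSH#1 and 9.71, 9.77 and 9.77 in pcDNA, a difference of -0.33 ± 0.068 (adjusted p = 0.007). Neither gene's groups overlapped. Slc38a2 read 9.05, 9.09 and 8.99 in pCTSH#1 and 9.51, 9.44 and 9.44 in pcDNA (-0.42; adjusted p = 0.0308). Nars1 differed by -0.30 (adjusted p = 0.044). Its arrays were also lower in pCTSH#1, with no overlap, at 0 h (-0.21, adjusted p = 0.29) and 16 h (-0.17, adjusted p = 0.291), which did not pass. Shmt1 read 9.55, 9.62 and 9.46 in pCTSH#1 and 9.23, 9.21 and 9.26 in pcDNA, a difference of 0.31 (0.0333). None of these groups overlapped. Leaving out 1 of the 6 arrays left 2 or 3 calls. Those of Slc38a2 (adjusted p = 0.0738 to 0.124) and Nars1 (0.0727 to 0.185) ended without any 1 of them, that of Shmt1 ended without any but the third pCTSH#1 array (0.0767 to 0.176), that of Eprs1 did not pass with the mean of its probe sets (0.0538), and that of Slc3a2 did not in a fit of the compared arrays alone (0.051). Cars1 differed by -0.29 (adjusted p = 0.0622) and passed, lower in pCTSH#1, among the brighter probe sets (0.0204) and with the mean of probe sets (-0.40, adjusted p = 0.00411).

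**Figure D4:**
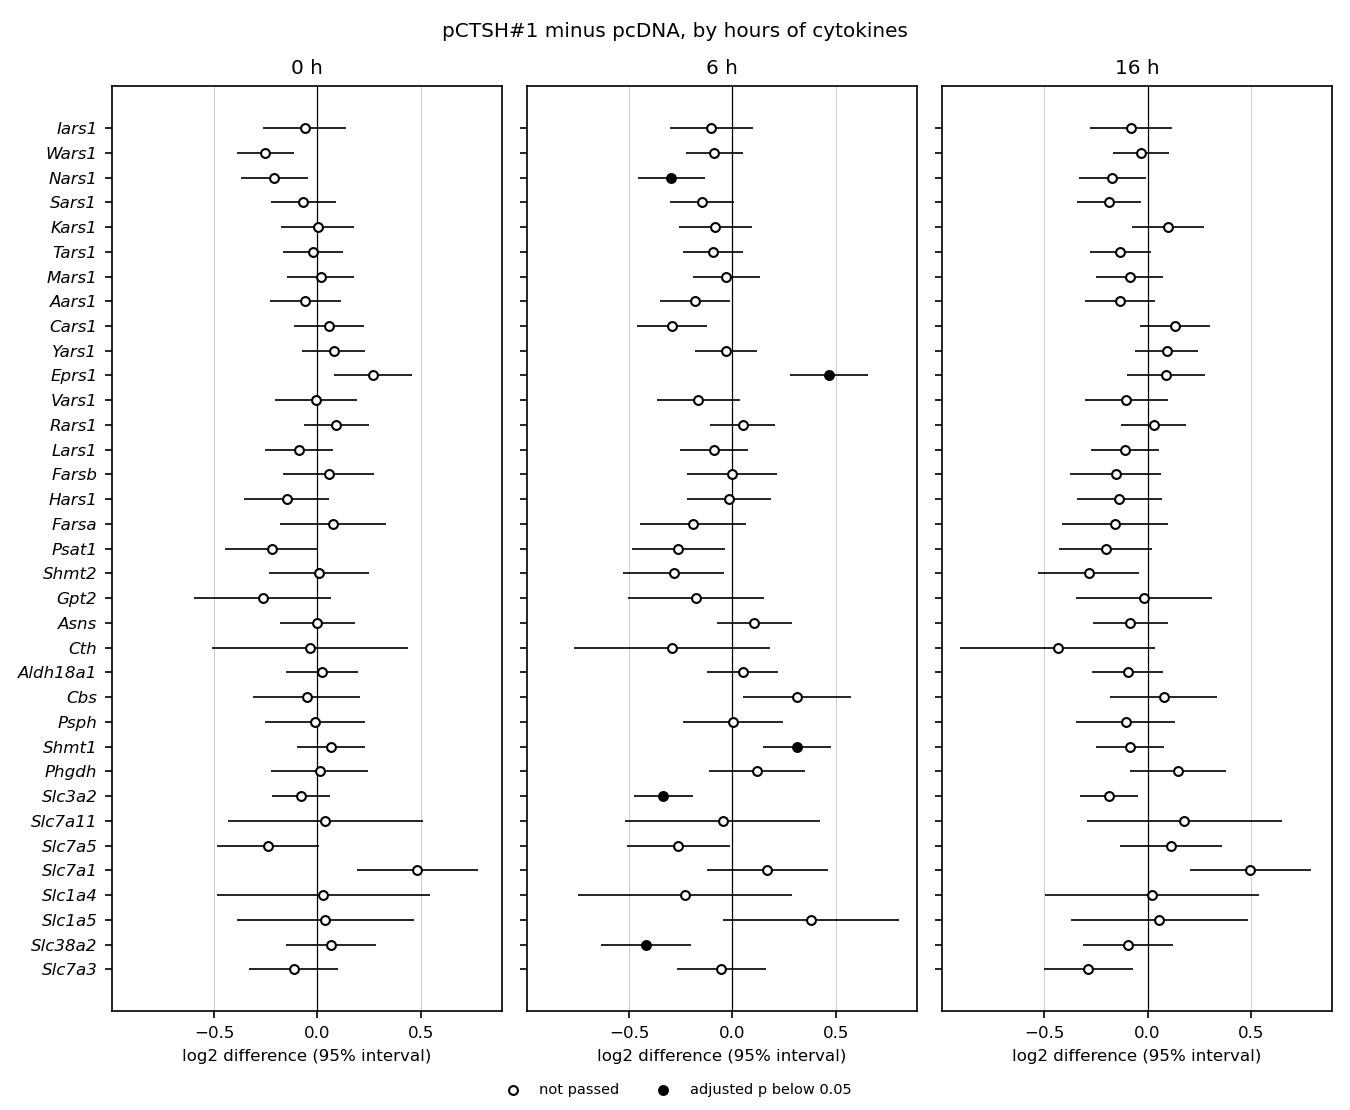
Log2 difference of pCTSH#1 minus pcDNA for each of the 35 genes at 0, 6 and 16 h with 95% intervals; filled points passed the test. All differences lie within 0.50 of 0, and the 5 that passed are at 6 h.

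The responses of pCTSH#1 and pcDNA were compared directly as the difference between their changes. None of the 35 genes passed for the change to 6 h (limma; 4 at an unadjusted p below 0.05), beside 0.119% of all genes, none for the change to 16 h (2 at an unadjusted p below 0.05), beside 0.275%, and none for the change between 6 and 16 h (5 at an unadjusted p below 0.05), beside 0.372%. At 6 h the largest value was Slc38a2, with a difference between responses of -0.49 (95% interval from -0.79 to -0.18; adjusted p = 0.476). At 16 h it was the dim gene Cth (-0.40, interval from -1.07 to 0.27), and Slc7a5 had 0.35 (interval from 0.00 to 0.70). Between 6 and 16 h Cars1 had 0.42 (interval from 0.18 to 0.66; adjusted p = 0.145). The 95% interval of such a difference reached 0.28 to either side for the median gene and 0.73 for the widest.

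Both lines were also set against untransfected cells at 0 h. None of the 35 genes passed between pCTSH#1 and INS1 at 0 h (limma; 2 at an unadjusted p below 0.05), beside 3.45% of all genes, and none between pcDNA and INS1 (1 at an unadjusted p below 0.05), beside 0% of all genes. The largest values were 0.49 for Slc7a1 in pCTSH#1 (adjusted p = 0.0777) and 0.35 for Slc1a5 in pcDNA. The mean level of the 35 genes at 0 h was 8.25 ± 0.05 in pCTSH#1, 8.27 ± 0.04 in pcDNA and 8.23 ± 0.06 in INS1 (SD, n = 3 each).

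Lists of neighbouring genes in the same pathways were also chosen with earlier results of these data known. They were read against the shares of all genes at 16 h, 25.2% higher and 30.1% lower in pCTSH#1 and 25.8% higher and 29.5% lower in pcDNA. Of the mitochondrial aminoacyl-tRNA synthetases, 13 of 17 were measured, and 5 rose and 4 fell at 16 h in each line, with medians of -0.00 in pCTSH#1 and 0.10 in pcDNA, shares not far from those of all genes. Ears2 rose by 1.50 in pCTSH#1 and 1.62 in pcDNA and Hars2 by 1.15 in pCTSH#1 and 1.27 in pcDNA, whereas Fars2 fell by 0.69 in pCTSH#1 and 0.99 in pcDNA and Yars2 by 0.95 in pCTSH#1 and 0.98 in pcDNA. At 6 h none of the 13 rose and 2 fell in pCTSH#1, beside 13.0% higher and 21.3% lower over all genes. In pcDNA none rose and 3 fell, beside 14.5% and 24.6%. With 13 genes, these counts are not far from those shares. Of 3 measured partners of the cytosolic multisynthetase complex, the scaffold gene Aimp1 rose at 16 h (0.42 in pCTSH#1 and 0.53 in pcDNA) and the scaffold gene Aimp2 fell (-0.26 in pCTSH#1 and -0.32 in pcDNA).

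Of 13 measured genes of the folate cycle and methionine synthesis, 6 rose and 5 fell at 16 h in each line. Mthfd2l, a mitochondrial folate dehydrogenase, read 7.24, 7.06 and 7.05 at 16 h and 3.92, 4.002 and 4.28, at or near background, at 0 h in pCTSH#1, and 6.46, 6.70 and 6.53 at 16 h and 4.25, 3.78 and 4.13 at 0 h in pcDNA. Mtr, the methionine synthase, rose by 1.51 in pCTSH#1 and 1.84 in pcDNA. Gcsh, a glycine cleavage subunit, fell by 1.79 in pCTSH#1 and 1.80 in pcDNA, and Mat2a, which makes S-adenosylmethionine, by 1.76 in pCTSH#1 and 1.71 in pcDNA.

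Other enzymes of amino acid metabolism were lower more often than higher at 16 h, with 2 of 14 higher and 7 lower in pCTSH#1 (median -0.44) and 2 higher and 8 lower in pcDNA (median -0.38). Pycr3, a last-step enzyme of proline synthesis, fell by 2.01 in pCTSH#1 and 1.98 in pcDNA, and Bckdhb, a subunit of the branched-chain ketoacid dehydrogenase, by 1.66 in pCTSH#1 and 1.56 in pcDNA, while its partner subunit Bckdha rose by 0.58 in pCTSH#1 and 0.75 in pcDNA. Odc1, the first enzyme of polyamine synthesis, rose by 0.51 in pCTSH#1 and 0.39 in pcDNA. Of 20 other amino acid transporters measured, 5 rose and 6 fell in pCTSH#1 and 5 rose and 5 fell in pcDNA, close to the shares of all genes. The glycine carrier Slc6a9 rose by 1.86 in pCTSH#1 and 2.33 in pcDNA and the glutamine carrier Slc38a1 by 0.83 in pCTSH#1 and 1.35 in pcDNA. Slc6a17, a vesicular carrier of neutral amino acids, fell by 1.77 in pCTSH#1 and 2.02 in pcDNA, and Slc38a3, another glutamine carrier, fell to 3.56, 3.44 and 3.75 at 16 h, at background, against 6.12, 6.29 and 5.82 at 0 h in pCTSH#1 and to 3.37, 3.56 and 3.40 against 5.90, 5.81 and 5.60 in pcDNA.

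The ATF4 arm and its other targets were higher at 16 h in 14 of 18 genes and lower in 1 in each line, with medians of 1.94 in pCTSH#1 and 1.96 in pcDNA. Atf4 itself rose at 16 h by 2.20 ± 0.090 in pCTSH#1 and 2.06 ± 0.090 in pcDNA, Trib3, a pseudokinase that restrains ATF4, by 6.55 in pCTSH#1 and 6.53 in pcDNA, and Atf3, a stress-induced transcription factor, by 6.06 in pCTSH#1 and 6.21 in pcDNA. Ddit3, which encodes CHOP, rose by 4.61 in pCTSH#1 and 4.82 in pcDNA. Eif2ak4, which encodes GCN2, the kinase that senses uncharged tRNA, was the gene that fell (-1.07 in pCTSH#1 and -0.75 in pcDNA). At 6 h 8 of the 18 were lower in pCTSH#1 than in pcDNA and none higher, beside 1.56% lower and 2.43% higher of all genes. Atf4 read 10.47, 10.50 and 10.50 in pCTSH#1 and 11.33, 11.43 and 11.28 in pcDNA at 6 h, a difference of -0.86 ± 0.090 (adjusted p = 8.91e-06) with no overlap. The difference between the 6 h responses of pCTSH#1 and pcDNA was -0.61 for Atf4 (adjusted p = 0.0966) and -0.91 for Ddit3 (0.00501). It passed for 3 of the 18, beside 0.119% of all genes.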

How the data were processed

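RNA of INS-1 cells was hybridised to 21 Affymetrix arrays. The authors deposited log2 values, made with RMA in the affy package, and limma is named too, per the submitters' processing notes; versions are not given in the sources used here. RMA scales all arrays to a common distribution, so a shift of all genes would not show. Of 31137 probe sets, 95 controls were left out, and 19063 of the 31042 tested had 1 gene symbol in the platform annotation. A gene was read from its brightest such probe set, and background was each array's highest nonspecific control.

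One limma fit (limma 3.58.1, R 4.3.3) of 7 group means over 21 arrays gave all 14 comparisons, two-sided, with Benjamini-Hochberg adjustment over all 31042 probe sets and a threshold of 0.05. It was also run on simulated data with independent noise and effects in few probe sets of a single group. That setting lacks the many changes and the shared replicate deviations of these arrays, so it does not show how the fit performs here. Errors are standard errors of the limma fit to the 21 arrays and share 1 estimate of the spread. Same-numbered replicates deviated together, with all 3 correlations above 0.1, in 2 of 21 pairs of groups (correlations -0.0903 to 0.244). Both pairs were at 0 h, pCTSH#1 with pcDNA and pcDNA with INS1. The third replicates of pCTSH#1 and pcDNA correlated at 0.206 at 6 h and 0.244 at 16 h. The replicate number entered only as an alternative block. Other alternatives were median centring, cyclic loess, the probe sets brighter than the median, moderation with trend and robust settings, only the arrays compared, the mean of a gene's probe sets, and leaving out each array. The number of arrays limits the precision.

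Values per array are given for genes that passed with no overlap between groups, those with the widest range of group means first, and up to 4 genes are named of each neighbouring list, the 2 highest and 2 lowest called at 16 h in pcDNA, with Atf4, Ddit3, Trib3, Eif2ak4 and Ctsh always allowed. The genes and lists were chosen with earlier results of these data known. Promoters were searched in RefSeq sequence of GRCr8 with Python 3.11.15.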

Additional observations from a re-analysis of the deposited data

How the results depend on the processing

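Of 145 calls of the 35 genes over the comparisons, the replicate block ended 1, that of Slc38a2 between 6 and 16 h in pcDNA (0.26, adjusted p = 0.0577), and changed no other. Median centring ended 4, cyclic loess 7, trend and robust moderation 0, the fit of only the arrays compared 11, and the mean of probe sets 5, with 1 more turned in sign (Sars1 at 6 h in pcDNA, 0.0124). Leaving out 1 array ended 61 of 870. Between pCTSH#1 and pcDNA at 6 h the count, 5 as reported, was 3 with median centring, 2 with only the arrays compared, 6 among the brighter probe sets, 5 with each other setting and 2 to 3 without 1 array. At 16 h it was 1 with median centring, 2 among the brighter probe sets, 1 with trend and robust moderation, 1 with the mean of probe sets and 0 to 2 without 1 array. At 0 h it was 1 among the brighter probe sets, 3 with trend and robust moderation and 1 with the mean of probe sets. Between pCTSH#1 and INS1 it was 2 among the brighter probe sets, 2 with trend and robust moderation and 0 to 1 without 1 array. Without 1 array, the counts against 0 h were 16 to 19 at 6 h and 25 to 26 at 16 h in pCTSH#1 and 15 to 16 and 25 to 27 in pcDNA, and from 6 to 16 h 24 to 25 in pCTSH#1 and 24 to 27 in pcDNA. With the mean of probe sets Shmt1 fell between 6 and 16 h in pCTSH#1 (-0.289, adjusted p = 0.00199). The causes were not tested. Genes near background (Cth, Gpt2, Slc7a11, Slc1a5) and at it (Phgdh, Cbs, Slc7a3) limit what can be read.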
